A study of Rattus norvegicus with 12 samples.

Results

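Myelin and oligodendrocyte genes were followed in the midbrain auditory centre, the inferior colliculus (IC), of rats deafened in the right ear and of sham-operated rats. The genes are Ugt8, Cnp, Mbp, Mog, Mag, Mobp, Bcas1, Cldn11 and Myrf, chosen by name with earlier results of these data known. For each, the brightest probe listed with exactly 1 gene symbol was taken, by its mean over all 12 arrays. All 9 were measured, through 10 probes, among 18166 genes tested.

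The 12 arrays were of Sprague-Dawley rats and formed 4 groups of 3. Left control and right control were the left and right IC of rats given a sham operation, a cut behind the ear without drilling of the otic bulla. Left deaf and right deaf were the left and right IC of rats whose right cochlea had been ablated, so the left IC lay opposite the ablated ear. Tissue was taken 2 weeks after either operation, from 20 ablated and 20 sham rats per the labels, which give no age. Pooling of rats on an array, and sharing of rats by arrays of the same number, are not described. All p-values rest on the spread between arrays, part of which may be technical.

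Oligodendrocytes wrap axons of the central nervous system in myelin, a stack of lipid-rich membranes that speeds conduction. Compact myelin is held together by basic proteins on its cytoplasmic faces, while adhesion proteins join its inner and outer wraps to the axon and to the surroundings. The IC receives and sends myelinated tracts, among them the lateral lemniscus. In whole tissue, fewer oligodendrocytes and less RNA per oligodendrocyte cannot be told apart.

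The deposited values are log2 intensities, already comparable between arrays. On each array the median was 5.34, and the upper quartile of all values was 6.94, below every value of the 9 genes. Some series and sample labels name hippocampus and a noise group, whereas others name IC and cochlear ablation. The latter were followed here for tissue and treatment. The tectal markers Tfap2d, at 9.39 to 9.79, and Slc17a6, at 9.56 to 9.99, lay well above that quartile, whereas Pou4f1, Tfap2b and Pax7 had means below 5.97, the median level of all genes. Of 11 measured genes of hippocampus and forebrain, 8 had means below 5.97, the lowest being Neurod6 at 3.40, while Prox1 at 6.17, Wfs1 at 7.02 and Zbtb20 at 8.51 lay above it. All 7 measured Schwann cell markers, which mark peripheral myelin, had means below 5.97. Right control 3 was the highest array in cerebellar markers, so right-side counts that it moves by 2 or more genes are also given without it.

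Cnp and Ugt8 were the members that were lower in all 6 deaf arrays, so their promoters are shown, beside those of Mag and Cldn11, which share a short motif with Cnp. Myrf, a member itself, encodes a membrane-bound transcription factor that binds DNA at a motif of the form CTGGCAC or CTGGTAC. RefSeq (GRCr8) promoter sequences, from 250 bases before to 50 after the gene start, were matched to 6 of the 9 genes. Matches on either strand are in capitals.
Cnp, chr10:86011254-86011553, strand +: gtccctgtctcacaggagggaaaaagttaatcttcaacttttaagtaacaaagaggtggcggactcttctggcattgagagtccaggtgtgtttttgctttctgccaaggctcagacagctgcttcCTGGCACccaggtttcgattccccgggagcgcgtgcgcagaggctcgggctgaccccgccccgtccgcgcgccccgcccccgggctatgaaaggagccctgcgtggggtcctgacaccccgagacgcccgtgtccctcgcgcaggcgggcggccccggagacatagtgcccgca
Mag, chr1:95290995-95291294, strand -: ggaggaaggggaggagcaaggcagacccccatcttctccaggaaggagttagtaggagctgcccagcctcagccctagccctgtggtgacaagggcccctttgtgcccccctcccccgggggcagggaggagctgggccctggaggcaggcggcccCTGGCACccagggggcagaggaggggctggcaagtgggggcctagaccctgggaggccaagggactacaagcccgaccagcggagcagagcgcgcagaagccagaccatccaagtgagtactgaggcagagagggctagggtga
Cldn11, chr2:114149490-114149789, strand -: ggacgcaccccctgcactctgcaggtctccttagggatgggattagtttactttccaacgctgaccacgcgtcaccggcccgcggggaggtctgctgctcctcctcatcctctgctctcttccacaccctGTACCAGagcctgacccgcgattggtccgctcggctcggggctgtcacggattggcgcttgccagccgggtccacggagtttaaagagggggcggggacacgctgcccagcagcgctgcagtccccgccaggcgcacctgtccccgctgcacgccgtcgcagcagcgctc
Ugt8, chr2:217007118-217007417, strand -: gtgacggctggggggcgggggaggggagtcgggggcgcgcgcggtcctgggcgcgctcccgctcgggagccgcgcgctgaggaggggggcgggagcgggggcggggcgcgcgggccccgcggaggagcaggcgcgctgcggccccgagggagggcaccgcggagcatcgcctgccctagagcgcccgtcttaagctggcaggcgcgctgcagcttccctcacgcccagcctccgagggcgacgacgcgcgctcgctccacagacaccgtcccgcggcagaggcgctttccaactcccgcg
Cnp and Mag held CTGGCAC on the strand of the gene, starting 124 and 94 bases before the start. Cldn11 held CTGGTAC on the other strand, at 120 bases before it. In the 300 bases of Ugt8, of which 79.3% are G or C, neither form was found. Of all 33469 promoters of this length, 6.78% held either form, 4.75% CTGGCAC and 2.16% CTGGTAC, so matches in 3 of 6 matched genes are a description of these letters only. The core of SOX factors, written ACAAAG or ACAATG, was found in 29.1% of all promoters and in 4 of the 6, namely Cnp, Mag, Mobp and a second promoter of Mbp.

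Deafness went with lower values of Ugt8 and Cnp on both sides, to 0.825 and 0.853 times the control intensity over both sides for the mean difference, while the estimates of the other 7 genes lay between -0.13 and 0.028 (log2). No gene of the array, member or not, passed limma at an adjusted p of 0.05 in any comparison, so every difference below is a value that did not pass over all genes. The share of genes called was thus 0% in each. At an unadjusted p under 0.05 limma picked out 670 genes (3.69%) on the left, 783 (4.31%) on the right and 823 (4.53%) for the mean of both sides.

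Ugt8 (Entrez 50555) encodes the enzyme that makes galactosylceramide, the main glycolipid of myelin. Its levels were 9.41, 9.62 and 9.42 in left control and 9.25, 9.35 and 9.09 in left deaf arrays. Right-sided levels were 9.82, 9.58 and 9.51 in control and 9.32, 9.37 and 9.33 in deaf arrays. Every deaf array was below every control array of either side, and the lowest of all was left deaf 3. The log2 difference was -0.26 on the left (SE 0.10, n = 3 per group) and -0.30 on the right (SE 0.10; limma adjusted p = 1.00 for both, over all genes). Averaged over both sides it was -0.28 (SE 0.073; limma adjusted p = 0.998), or 0.825 times the control level.

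Cnp (Entrez 25275) encodes the cyclic nucleotide phosphodiesterase of myelin, which keeps cytoplasmic channels open between the wraps. The 3 left control arrays lay close together, at 10.11, 10.10 and 10.11, against 9.82, 10.002 and 9.81 in left deaf. On the right, control arrays were at 10.33, 10.21 and 10.12 and deaf arrays at 9.89, 10.06 and 10.02. Here too no deaf array reached a control array. Both sides gave a difference of -0.23 (SE 0.087 each; limma adjusted p = 1.00), and the mean of both was -0.23 (SE 0.061; limma adjusted p = 0.998), or 0.853 times control. Complete separation of 6 deaf from 6 control arrays in this direction was seen for 31 of all genes (0.171%), of which Ugt8 and Cnp are 2. By unadjusted p of the mean of both sides they ranked 38 and 45 of 18166. These 2 genes were known to be low before they were chosen, so the ranks are a description.

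Leaving out any 1 array kept both differences below 0. For Ugt8 the mean of both sides then ran from -0.31 to -0.23, and for Cnp from -0.26 to -0.20, in each case nearest to 0 without right control 1, their highest array. Without right control 3, where cerebellar markers were highest, Ugt8 was at -0.31.

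**Figure D1:**
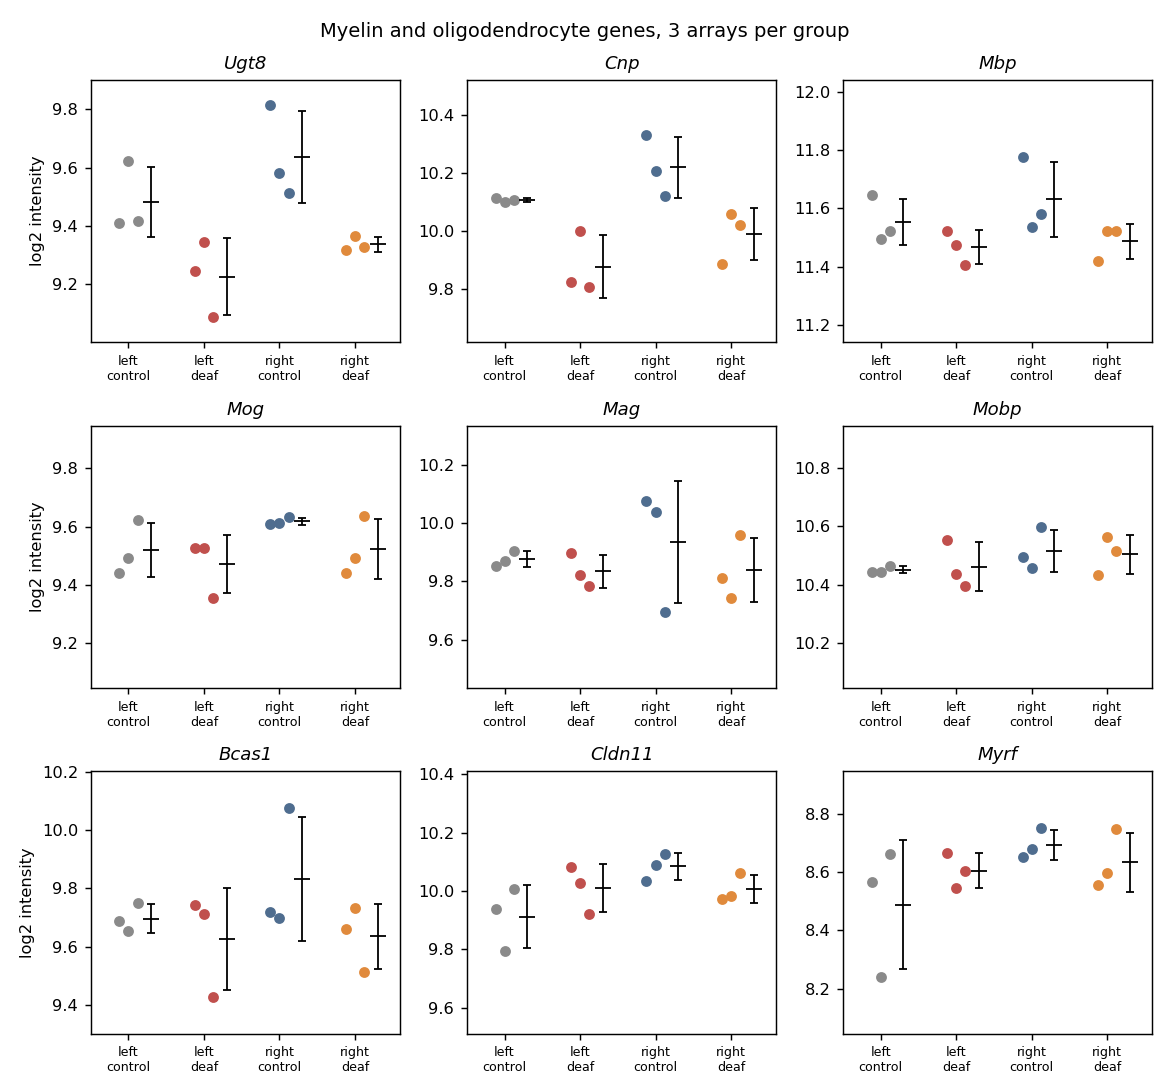
Log2 intensity (vertical axis) of the 9 myelin and oligodendrocyte genes in the 4 groups; coloured points are arrays (numbers 1 to 3 from left to right), and the black bar is the mean ± SD (n = 3). All panels span the same log2 range, and only for Ugt8 and Cnp do the 6 deaf arrays lie below all 6 control arrays.

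Genes of compact myelin had smaller estimates. Mbp encodes myelin basic protein, which zips the cytoplasmic membrane faces together. It was at 11.64, 11.49 and 11.52 in left control and 11.52, 11.48 and 11.41 in left deaf arrays, which overlapped. In right control it was at 11.78, 11.54 and 11.58, and in right deaf at 11.42, 11.52 and 11.52, all below the controls. The differences were -0.085 (SE 0.086) on the left and -0.14 (SE 0.086; limma adjusted p = 1.00) on the right. They were -0.040 without left control 1 and -0.070 without right control 1, the highest array of each side. The values of Mbp on 4 arrays were the same to 4 decimals, 11.5218 in left control 3, left deaf 1, right deaf 2 and right deaf 3, since the probe stood at rank 91 from the top on each. At that height neighbouring ranks are 0.014 apart, so small differences of Mbp come in steps.

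A second, dimmer Mbp probe, with a mean of 6.38, gave -0.19 (SE 0.13) on the left and 0.065 (SE 0.13) on the right. The 2 probes thus differed in sign on the right, and the value of Mbp there rests on the brighter one. Mobp, a smaller basic protein of compact myelin, lay between 10.40 and 10.60 on all 12 arrays, the narrowest range of the 9 genes. Its differences were 0.010 (SE 0.077) on the left and -0.012 (SE 0.077) on the right. The 95% confidence interval of the mean of both sides, -0.120 to 0.118, holds neither the Ugt8 nor the Cnp estimate. The intervals of Ugt8, up to -0.119, and of Cnp, up to -0.094, overlap it, and differences between genes were not tested.

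Surface and adhesion genes overlapped between deaf and control arrays on both sides. Mag, the adhesion molecule of the innermost wrap, was at 9.85, 9.87 and 9.90 in left control and 9.90, 9.82 and 9.78 in left deaf. In right control it was at 10.07, 10.04 and 9.69, with right control 3 the lowest of all 12, and in right deaf at 9.81, 9.74 and 9.96. The differences were -0.042 (SE 0.10) and -0.098 (SE 0.10). The first was -0.016 without left deaf 3, and the second ran from -0.22 without right control 3 to -0.028 without right control 1. Mog, exposed on the outermost wrap, ran from 9.36 to 9.64, with differences of -0.049 (SE 0.086) and -0.095 (SE 0.086). Its right control arrays were within 9.61 to 9.63. The left difference of Mog was 0.0083 without left deaf 3, so its sign rested on 1 array, and the right one was -0.054 without right deaf 1.

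Cldn11 forms the tight junctions that seal the myelin sheath. Levels were 9.94, 9.79 and 10.01 in left control and 10.08, 10.03 and 9.92 in left deaf arrays, and 10.03, 10.09 and 10.13 in right control and 9.97, 9.98 and 10.06 in right deaf arrays. Deaf arrays were on average higher on the left, by 0.098 (SE 0.082), and lower on the right, at -0.080 (SE 0.082). The left difference was 0.038 without left control 2. The difference between the sides, 0.18 (SE 0.12), did not pass (limma adjusted p of the interaction = 1.00).

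The lineage regulator Myrf and the stage marker Bcas1 showed no separation of deaf from control arrays. Myrf drives the myelin programme of maturing oligodendrocytes. It was at 8.56, 8.24 and 8.66 in left control, 8.67, 8.55 and 8.60 in left deaf, 8.65, 8.68 and 8.75 in right control and 8.56, 8.60 and 8.75 in right deaf arrays. Its left difference, 0.12 (SE 0.11), was -0.0081 without left control 2, the lowest array by far, and its right difference, -0.061 (SE 0.11), was -0.022 without right deaf 1. Bcas1 marks oligodendrocytes that have begun to myelinate. It was at 9.69, 9.65 and 9.75 in left control, 9.74, 9.71 and 9.43 in left deaf, 9.72, 9.70 and 10.08 in right control, and 9.66, 9.73 and 9.51 in right deaf arrays. The right difference of -0.20 (SE 0.12) was -0.073 without right control 3, and the left difference of -0.070 (SE 0.12) was 0.030 without left deaf 3.

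**Figure D2:**
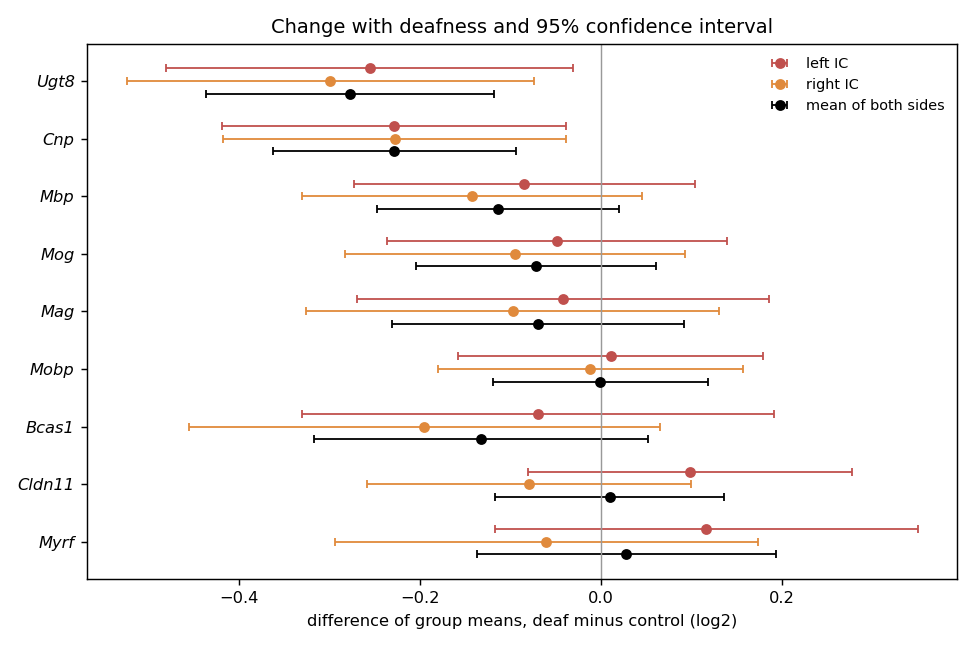
Difference of group means, deaf minus control (log2, horizontal axis), of each gene for the left IC, the right IC and the mean over both; bars are 95% confidence intervals from limma, not adjusted for the number of genes. The intervals of Ugt8 and Cnp lie below 0 in all 3 comparisons, and those of the other 7 genes include 0.

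Counted as a group, 6 of the 9 genes had lower means in left deaf than in left control arrays, against 51.8% of all genes, with a median of -0.049 (all genes -0.0051). At an unadjusted limma p under 0.05, 2 of 9, Ugt8 and Cnp, were lower on the left (background 1.99%). The arrays of the same 2 of 9 did not overlap (background 5.70%). The count by p was 0 without left deaf 3, and 1 without left control 1, left control 2 or left deaf 1. Left deaf 3 also weighed on the count of lower means: without it 4 of 9 were lower and the median was 0.0083. On the right all 9 had lower means in deaf arrays, against 49.5% of all genes, with a median of -0.098 (all genes 0.0014), which was -0.15 without right deaf 3. Without right control 3, 8 of 9 were lower, Mobp being at 0.028, and the median was -0.088; without right deaf 1 the count was 8 too. Of these 9, 2 had an unadjusted p under 0.05 (background 2.19%) and 3, Ugt8, Cnp and Mbp, had arrays that did not overlap (background 3.84%). For the mean of both sides 7 of 9 were below 0 (background 50.6%), with a median of -0.072. By unadjusted limma p under 0.05, Ugt8 and Cnp were again the 2 of 9 (background 2.52%). Since these 2 genes were known to be low before they were chosen, such counts beside the background are a description only.

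A difference in the effect of deafness between the sides was not detected for the 9 genes. The interaction, left change minus right change, ran from -0.00058 for Cnp (SE 0.12) to 0.18 for Cldn11, and 622 of all genes (3.42%) had an unadjusted limma p under 0.05 for it, none of them a member.

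Right control was the group with the highest mean for all 9 genes, though without right control 3 Mobp was higher in right deaf arrays. Left deaf had the lowest mean for 6 of them, and left control for Mobp, Cldn11 and Myrf. Between neighbours in this order, arrays failed to overlap only for Ugt8 (right deaf below left control) and for Cnp (right deaf below left control, and left control below right control). The order differs by gene, and the share of all genes with such gaps was not counted, so no excess is read from this. The number of genes above their own mean of 12 arrays was 9, 7 and 8 on right controls 1, 2 and 3, and 2, 2 and 6 on left controls. It was 5, 2 and 0 on left deaf and 0, 3 and 5 on right deaf arrays. The mean deviation of the 9 genes was 0.078 to 0.15 on right control arrays, -0.055 to 0.029 on left control, -0.16 to -0.015 on left deaf and -0.078 to 0.012 on right deaf. Right control thus stood above the other 3 groups without overlap, and left deaf 3 was lowest.

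**Figure D3:**
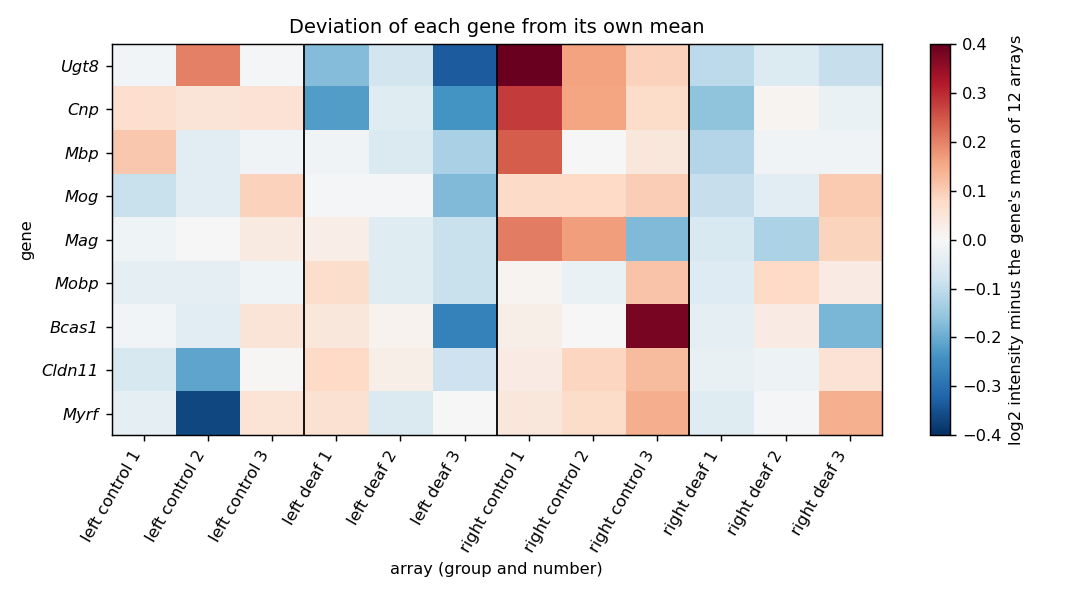
Log2 intensity of each gene (rows) on each array (columns, 3 per group) minus the gene's own mean of 12 arrays; red is higher and blue is lower, and the colour scale ends at ±0.4. Right control arrays are mostly red, and on left deaf 3 and right deaf 1 no gene is above its mean.

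In hearing rats all 9 genes were lower in the left than in the right IC, against 50.4% of all genes, with a median of -0.11 (all genes -0.0013). Most genes of several other marker lists were lower on the left there too, as given below. The differences ran from -0.21 for Myrf (SE 0.11; limma adjusted p = 0.934) and -0.17 for Cldn11 (SE 0.082; limma adjusted p = 0.934) to -0.060 for Mag (SE 0.10). Single arrays moved these values: without left control 2 Myrf was at -0.081 and Cldn11 at -0.11, and without right control 3 Bcas1 went from -0.13 to -0.012. Without right control 1 Ugt8 was at -0.065, Cnp at -0.056, Mbp at -0.0046 and Mag at 0.0097, so that 8 of 9 were lower, with a median of -0.075. All 9 were lower without right control 3, with a median of -0.15. With all arrays, the dimmer second probe of Mbp was higher on the left, at 0.27 (SE 0.13), against -0.077 for the brighter one counted here. No member had an unadjusted p under 0.05 (background 2.59% in this direction and 4.95%, or 900 genes, in either), and the arrays of 2 of 9, Cnp and Cldn11, did not overlap (background 4.84%). In deaf rats 8 of 9 were lower on the left (background 52.2%), with a median of -0.028 and a range of -0.11 to 0.0054. Without left deaf 3 the count was 4 and the median 0.0047, without right deaf 3 they were 5 and -0.0022, and without right deaf 1 they were 8 and -0.067. No member, against 607 of all genes (3.34%), had an unadjusted p under 0.05 there. The comparison of the sides in hearing rats and that of deaf with control on the right share the right control arrays, so their values are not independent: Ugt8 was at -0.15 (SE 0.10) in the first and -0.30 in the second, Cnp at -0.11 (SE 0.087) and -0.23, and Myrf at -0.21 and -0.061.

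Markers of other tissue and cell types varied between the groups as well. Of 14 measured cerebellar markers, 12 were lower in right deaf than in right control arrays (median -0.39), 7 of them at an unadjusted p under 0.05, and 13 were lower in left than in right control arrays (median -0.24). Without right control 3 these counts were 13, 4 and 13, with medians of -0.20 and -0.21, and without right deaf 2 the second was 3. Their mean deviation was 0.052 to 0.62 on right control arrays, -0.15 to -0.13 on right deaf, -0.15 to -0.051 on left control and -0.11 to -0.026 on left deaf arrays. On the left, 7 of the 14 were lower in deaf arrays (median 0.0030). Astrocyte genes were lower in deaf arrays on both sides, 8 of 9 on the left (median -0.042) and 9 of 9 on the right (median -0.055). The counts were 4 on the left without left control 3 (median 0.0039) and 7 on the right without right control 3 (median -0.050). Microglia genes were lower in 6 of 9 on the left (median -0.016) and 7 of 9 on the right (median -0.091). The left count was 3 without left control 3 (median 0.049) and 4 without left deaf 1 (median 0.029). Of 11 hippocampal and forebrain genes, 6 were lower on the left (median -0.013) and 11 on the right (median -0.15). Of 10 neuronal genes, 5 were lower on the left (median -0.00014) and 3 on the right (median 0.034), or 6 there without right control 3 (median -0.032). Tectal genes were lower in 4 of 10 on either side (medians 0.028 and 0.022), or in 6 on the right without right control 3 (median -0.019). Schwann cell genes were lower in 4 of 7 on the left (median -0.10) and 3 of 7 on the right (median 0.048). In hearing rats the left IC was lower than the right for 8 of 9 astrocyte (median -0.090) and 8 of 9 microglia genes (median -0.12). The same held for 9 of 11 hippocampal and forebrain genes (median -0.17) and 8 of 10 neuronal genes (median -0.045). It held for 7 of 10 tectal (median -0.048) and 3 of 7 Schwann cell genes (median 0.040). Without right control 3 the neuronal and tectal counts were 10 and 5. The part of these markers in the values of the 9 genes was not tested on either side.

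The wider oligodendrocyte programme was read from 35 further genes of mature oligodendrocytes, of which 30 were measured. In left deaf arrays 24 of the 30 were lower (median -0.061), and in right deaf arrays 23 (median -0.079). None passed over all genes, and at an unadjusted p under 0.05 none did on either side alone, or 2 on the right without right control 3. The smallest p-values on the left were those of Klk6, a myelin-associated protease, at -0.26 (SE 0.12), the lineage factor Olig2 at -0.23 (SE 0.11) and the proteoglycan-cleaving Adamts4 at -0.23 (SE 0.13). On the right they were Tmem88b at -0.18 (SE 0.086), the myelin protein gene Opalin at -0.14 (SE 0.081) and Hapln2, a link protein of the nodal matrix, at -0.18 (SE 0.11). For the mean of both sides 25 of 30 were lower (median -0.077), and 3 of 30 had an unadjusted p under 0.05 in this direction (background 2.52%): Klk6 at -0.23 (SE 0.087), Hapln2 at -0.18 (SE 0.076) and Omg, a myelin glycoprotein, at -0.12 (SE 0.052). That count of 3 was 1 without left control 1, 1 without right control 1 and 5 without right control 3. In hearing rats 20 of the 30 were lower in the left than in the right IC (median -0.040), or 15 without right control 1 (median -0.00082).

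Of 15 genes of precursors and of cells committed to the lineage, 8 were lower on the left (median -0.011, range -0.18 to 0.16) and 11 on the right (median -0.062, range -0.37 to 0.29). Without right control 3 the right count was 9 (median -0.083). Between the sides of hearing rats 11 of the 15 were lower on the left (median -0.048), or 8 without right control 3 (median -0.017). Bmp4, a secreted growth factor named here after its values were seen, formed the lower end on the right, at 6.90 in control and 6.53 in deaf arrays (difference -0.37, SE 0.31; limma adjusted p = 1.00), and was at -0.16 (SE 0.31) on the left. Sox11, a factor of immature cells, was 0.29 higher in right deaf arrays (SE 0.12; limma adjusted p = 1.00) and 0.12 higher on the left (SE 0.12). Genes of the axon-glia junction, such as the contactins and neurofascin, stayed near 0, and none had an unadjusted p under 0.05. On the left 3 of 10 were lower (median 0.012), but 7 without left deaf 1 (median -0.0074). On the right 7 were lower (median -0.018), or 5 without right control 3 (median 0.0021). Epb41l3, a membrane skeleton gene, had the smallest p of the junction genes on the right, at -0.090 (SE 0.087). In hearing rats 5 of the 10 were lower in the left than in the right IC (median 0.0037).

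**Figure D4:**
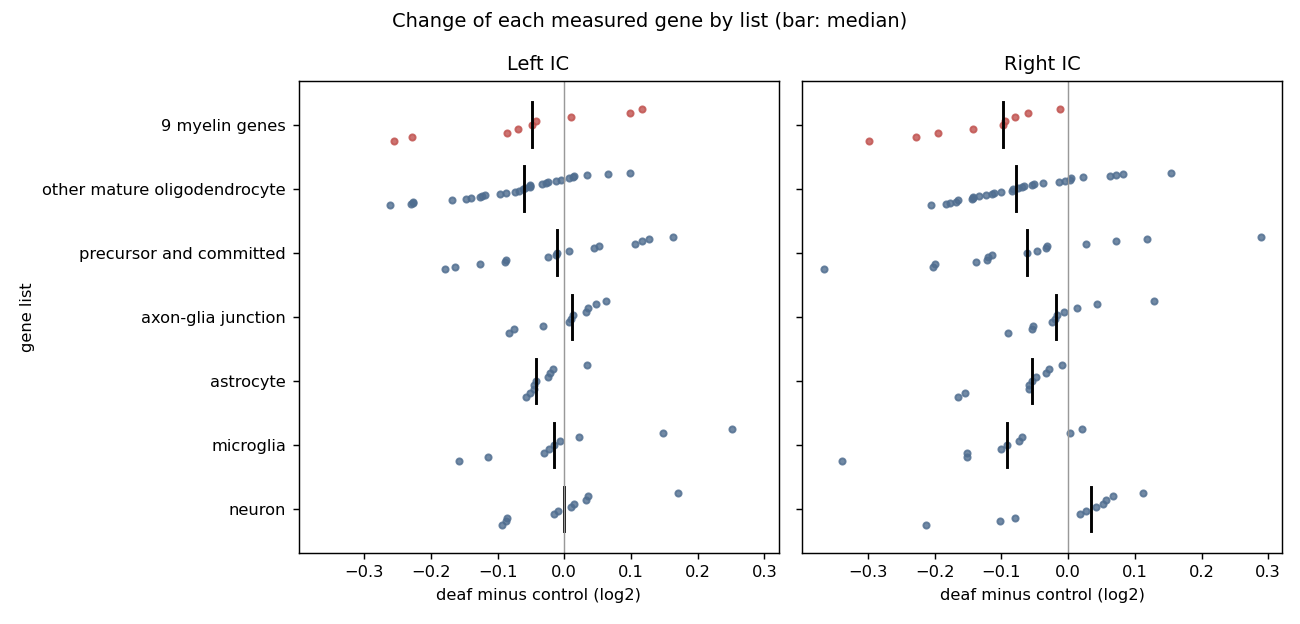
Difference of group means, deaf minus control (log2, horizontal axis), of each measured gene in 7 gene lists, left IC and right IC; a point is a gene and the black bar the median of the list. Most of the 9 myelin genes and of the 30 other mature oligodendrocyte genes lie below 0 on both sides, with medians between -0.098 and -0.049. So do most astrocyte genes (medians -0.042 left and -0.055 right) and most microglia genes (-0.016 and -0.091), while the axon-glia junction genes lie around 0.

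The genes outside the lists whose arrays ran most like the mean of the 9 genes were Bpgm, which ordered 60 of the 66 pairs of arrays the same way, Arf6 and Pacsin3 (59 each), and Ide and Prtfdc1 (57 each). They are the top 5 of 9001 genes above the median level, whose median was 33 pairs. For comparison, single members, which form part of that mean, ordered 48 to 55 pairs the same way. Bpgm had means of 8.47 in left control, 8.58 in right control, 8.31 for left deaf and 8.38 for right deaf, and a mean difference with deafness of -0.18 (SE 0.065). That of the other 4 ran from -0.12 for Pacsin3 (SE 0.065) to -0.024 for Prtfdc1 (SE 0.054).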

How the data were processed

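Total RNA was turned into biotin-labelled single-stranded cDNA and hybridised to 1-colour Affymetrix arrays, per the labels' protocols. The authors deposited log2 intensities; of the array model, summarisation and normalization the sources used here say nothing. All 12 arrays have nearly the same distribution of values, so a change shared by all genes cannot be seen. Detection calls were not used.

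Of 29489 probes, 18511 had 1 gene symbol, 575 several and 10403 none; the brightest probe of each gene gave 18166 genes, with no filter on dim genes. Limma 3.58.1 in R 4.3.3 fitted 4 group means, with 8 residual and 3.79 prior degrees of freedom. Tests were two-sided, adjusted by Benjamini-Hochberg over all genes, with a threshold of 0.05, and the fit was tested on simulated data. An array's deviation is the mean of gene-centred log2 values.

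The members, lists and tests were chosen with earlier results of these data known. All members were named; of other lists, up to 3 genes with the smallest p. Like genes were those ordering most array pairs as the members' mean does (above the median level, predicted, microRNA and receptor families skipped). The number of arrays limits the precision.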

Additional observations from a re-analysis of the deposited data

How the results depend on the processing

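The limits are the 3 arrays per group and the unknown pooling of rats. Under the alternatives (quantile normalization, median centring, a filter on dim genes, other probe choices, a robust variance trend, weighted arrays, pairwise fits, the replicate block, each array left out), Ugt8 and Cnp stayed below 0 in both sides and their mean, and no member passed over all genes in the 4 comparisons followed gene by gene (smallest limma adjusted p = 0.503, for Cldn11 between the sides of hearing rats). Genes called rose from 0 to 1 on the left with genes above the median level and with the variance trend, and between the sides of deaf rats to 1 and 2. At an unadjusted p under 0.05 the mean of both sides had 823 genes. With 1 array left out, the count was 0 to 1 on the left and for the mean of both sides.

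The same-numbered left and right arrays deviated together with correlations of 0.10, -0.013 and 0.057 in control and 0.15, -0.056 and -0.043 in deaf rats, and the arrays numbered 1 matched each other best in both, while not every other array matched its own number best, so whether the numbers pair the arrays is undetermined. The replicate block gave 1 called gene between the sides of hearing rats and 1 for the interaction, against 0 each.

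With 1 array left out, the median of the 9 genes was -0.078 to 0.0083 on the left and -0.15 to -0.079 on the right, and 4 to 9 genes were lower between the sides of deaf rats. Signs turned for small differences. On the left these were Mog (-0.088 to 0.0083), Mobp (-0.036 to 0.044), Bcas1 (-0.13 to 0.030) and Myrf (-0.0081 to 0.20), and on the right Mobp (-0.042 to 0.028). For the mean of both sides they were Mobp (-0.024 to 0.019), Cldn11 (-0.021 to 0.033) and Myrf (-0.034 to 0.071), and between the sides of hearing rats Mag (-0.18 to 0.0097). Array weights turned Mobp (-0.00020 left, 0.012 right, 0.0060 mean) and Cldn11 (-0.0054, mean). The mean of its probes turned Mbp between the sides of hearing rats to 0.096, through the second probe. Otherwise the cause was not tested. Leaving out arrays for the other gene lists was chosen after seeing the data.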

Other observations

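Markers of the meninges and fibroblasts, which cover the brain surface, varied more within groups than the other lists. Their mean deviation was 0.73 on left deaf 2 and 0.53 on right deaf 2, but -0.64 on right deaf 3 and 0.59 on right control 1. The 9 myelin genes had mean deviations of -0.033, -0.016, 0.012 and 0.15 on these 4 arrays. All 13 measured meningeal genes were higher in left deaf than in left control arrays (median 0.37), but 7 of 13 without left deaf 2 (median 0.082). On the right 9 of 13 were lower (median -0.056), or 12 without right control 3 (median -0.26). Without right control 1 the count was 0 (median 0.22), so the direction on the right rested on single arrays. Between the sides of hearing rats 12 of 13 were lower on the left (median -0.21), but 4 without right control 1 (median 0.047).

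Among the hippocampal and forebrain genes, Neurod2 was at -0.61 (SE 0.16) and Tbr1 at -0.35 (SE 0.13) between the left and right IC of hearing rats; neither passed limma over all genes, and their means, 5.25 and 4.42, lay below the median level of all genes. Spink8 had a mean of 3.55, below the lower quartile of all values, 3.78, so that no signal above background is shown for it and its difference is not read. The peripheral myelin gene Ncmap was at -0.33 (SE 0.12) between the sides of hearing rats and Egr2, listed here with Schwann cell genes, at 0.31 (SE 0.16). Their means, 5.62 and 4.65, were below the median level as well. Single arrays moved both: without right control 2 no gene of that list was above 0.13, and without left control 1 none was below -0.23.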
